A study of Mus musculus with 6 samples.

Results

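The genes of oxygen sensing by hypoxia-inducible factors (HIFs) were examined in mouse cartilage. The set comprised 10 genes, Hif1a, Epas1, Arnt, Egln1, Egln2, Egln3, Vhl, Hif1an, Vegfa and Cited2, which were taken by gene name from a table of 34709 genes, and all 10 were present once. The table held RNA-seq of articular cartilage in 6 libraries, 3 labelled KO and 3 labelled wildtype, to examine how loss of a gene altered expression in this tissue. The labels gave the genotype, KO or wildtype, and the tissue, and no treatment. By the table's column names the mice of both groups were aged 18 (in months). The methods describe male littermates and a purchased knockout line, and the site from which cartilage was taken for RNA was not given.

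HIFs are transcription factors made of an oxygen-sensitive alpha subunit, such as HIF1A or EPAS1 (HIF2A), and the stable partner ARNT. When oxygen is present, prolyl hydroxylases (EGLN1, EGLN2 and EGLN3) modify the alpha subunit, VHL then binds it for degradation, and the asparaginyl hydroxylase HIF1AN blocks its contact with the coactivators CBP and p300. Cartilage has no blood vessels and is poor in oxygen, HIF1A is known to be needed for survival of growth plate chondrocytes, and EPAS1 has been tied to cartilage destruction. This control acts on the protein, so transcript levels do not measure HIF activity.

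The libraries were compared before the genes. KO replicates 2 and 3 differed less than any other pair in the noise ratio, the observed over the counting variance. Over genes with high counts only, it was 7.27 against 160 for the next closest pair. Over genes with mean counts of 200 to 50000 it was 5.77 against 23.7, a smaller gap. By the ratio at high counts, KO replicates 2 and 3 were counted as 1 sample, which left 2 KO and 3 wildtype samples. Whether they are 1 library or separate ones could not be settled from the files, and each p-value on the merged samples rests on this choice. The fit of the 6 libraries as labelled is given beside it, with p-values that would tend to be too small if the pair is 1 library. On the first principal component, which held 45.9% of the variance, KO replicates 2 and 3 stood at 50.7 and 49.6, whereas KO replicate 1 (-24.6) lay among the wildtype libraries (-26.2 to -23.9). Total counts ranged from 52268311 to 63331135 per library. Of the chondrocyte markers, Prg4 (402 to 1034 FPKM), Comp (41.0 to 109), Acan (13.2 to 22.8) and Col2a1 (12.4 to 21.3) were measured, but Col9a1, Matn1 and Matn3 stayed under 0.5 FPKM. Summed neutrophil markers ranged from 26991 to 62338 FPKM and erythroid markers from 21063 to 93796 FPKM, so transcripts of blood-forming cells were present as well. In such bulk samples, fewer cells of a type and less RNA per cell cannot be told apart.

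All 10 genes were expressed in all libraries, from 4.95 to 24.9 FPKM (FPKM being fragments per transcript length and library size), and all 10 passed the minimum mean of 0.5 FPKM for testing. No gene of the set was called between KO and wildtype cartilage at an adjusted p under 0.05 (edgeR's quasi-likelihood test, Benjamini-Hochberg adjustment over 15373 genes), and the call rate over all genes was 0%, with a lowest adjusted p of 0.105. At an unadjusted p under 0.05 there were 2 of the 10, Cited2 and Egln3, both higher in KO, against 13.7% of all tested genes. With the 6 libraries as labelled, 0 of the 10 were called, against 3.71% of all genes (378 higher and 192 lower), and 2 of the 10 had an unadjusted p under 0.05. DESeq2 on the merged samples called 1 of the 10, Cited2, against 5.72% of all genes. By direction, 9 of the 10 were higher in KO and 1 (Epas1) was lower, with a median log2 difference of 0.09, while over all tested genes 7308 were higher and 8065 lower, with a median of -0.02.

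**Figure D1:**
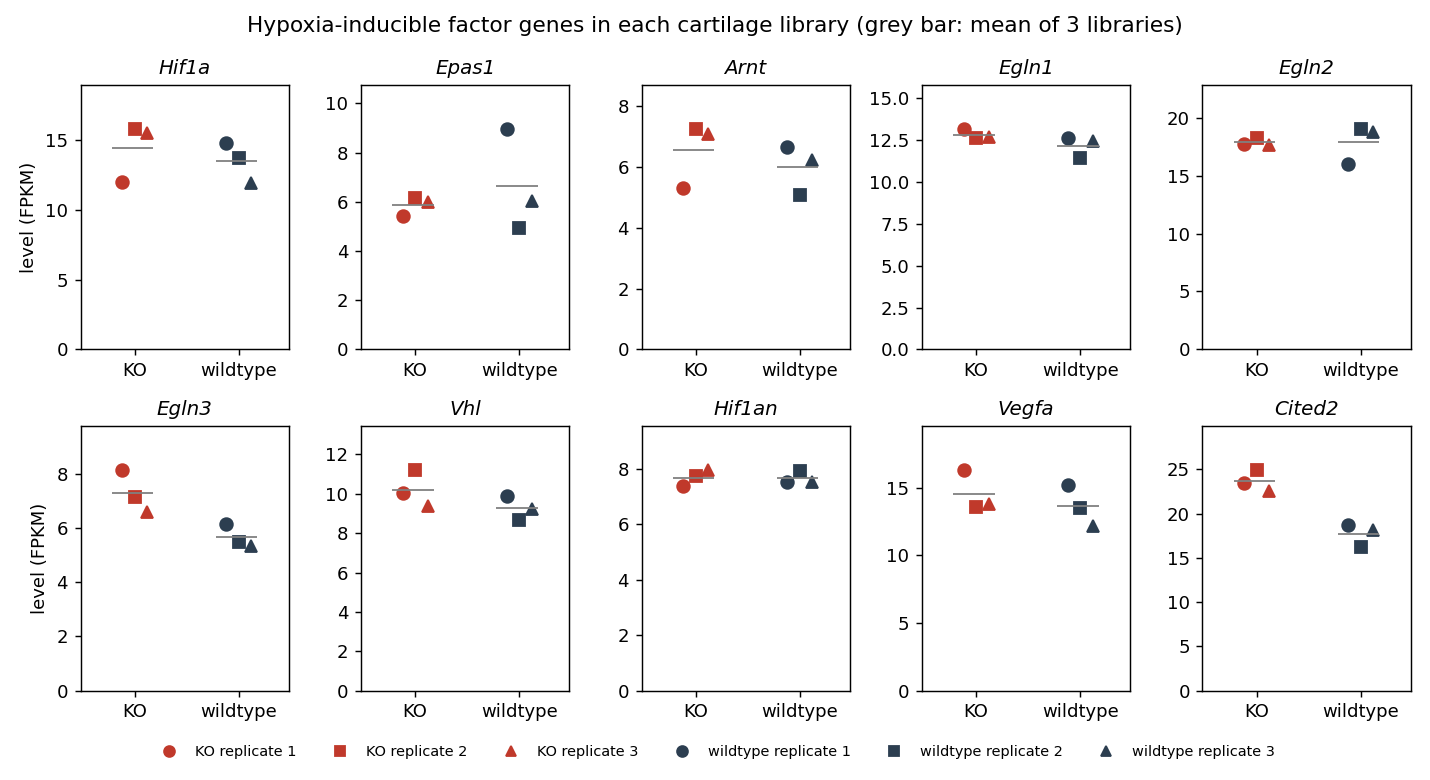
Level of the 10 genes (FPKM, vertical axis from 0) in the 3 KO libraries (red) and the 3 wildtype libraries (dark blue), with the replicate number given by the marker shape and a grey bar at the mean of the 3 libraries. KO and wildtype points are apart for Cited2 and Egln3 and overlap for the other 8 genes.

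Among the alpha subunits, Hif1a (chr12:73901375-73947530, plus strand), which encodes the subunit HIF1A, was measured at 12, 15.8 and 15.5 FPKM in KO replicates 1, 2 and 3 and at 14.8, 13.7 and 11.9 FPKM in wildtype replicates 1, 2 and 3. The groups overlapped, and KO replicate 1 was as low as the lowest wildtype library. The log2 difference, KO minus wildtype, was 0.050 (SE 0.147, 95% interval -0.30 to 0.40, adjusted p = 0.942). It stood at 0.18 when KO replicate 1 was left out and at -0.087 when KO replicates 2 and 3 were, so the direction depended on which KO libraries were used.

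Epas1 (chr17:86753700-86833410, plus strand), which encodes the other alpha subunit, was at 5.41, 6.18 and 6.001 FPKM in the KO libraries and at 8.96, 4.95 and 6.02 FPKM in the wildtype libraries, in the same order. Wildtype replicate 1 held the highest value and wildtype replicate 2 the lowest, so the KO range fell inside the wildtype range. The difference was -0.18 (SE 0.228, 95% interval -0.72 to 0.35, adjusted p = 0.820), and it turned to 0.066 when wildtype replicate 1 was left out. Epas1 had the widest spread of the 10 genes, with a highest over lowest library of 1.81. The ratio of Epas1 to Hif1a in FPKM was 0.451, 0.391 and 0.386 in the KO libraries and 0.605, 0.361 and 0.505 in the wildtype libraries, and Epas1 was thus below Hif1a in 6 of 6 libraries. Endothelial cells, which are known to express Epas1, were present by their markers. Their summed level was 44.9, 46.8 and 45.3 FPKM in the KO libraries and 68.6, 49.0 and 62.1 FPKM in the wildtype libraries, and 9 of 9 endothelial markers had a lower value in KO with 0 called in either fit. Their part in the Epas1 level was not tested.

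Arnt (chr3:95434388-95497237, plus strand), the shared partner of both alpha subunits, was at 5.31, 7.26 and 7.09 FPKM in KO and at 6.65, 5.08 and 6.24 FPKM in wildtype. KO replicate 1 and wildtype replicate 2 were the lowest, and the groups overlapped. Its difference was 0.074 (SE 0.157, 95% interval -0.29 to 0.44, adjusted p = 0.912), with -0.0081 when wildtype replicate 2 was left out and -0.090 when KO replicates 2 and 3 were.

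The prolyl hydroxylases were compared next. Egln1 (chr8:124908587-124949324, minus strand) encodes PHD2, the main hydroxylase of HIF1A in most cells. Its level was 13.2, 12.6 and 12.7 FPKM in the KO libraries and 12.6, 11.4 and 12.4 FPKM in the wildtype libraries, a narrow range in which the groups overlapped. The difference of 0.11 (SE 0.123, 95% interval -0.18 to 0.40) did not pass the test (adjusted p = 0.793). It was 0.024 without KO replicate 1 and 0.20 from KO replicate 1 alone.

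Egln2 (chr7:27158658-27166802, minus strand), which encodes PHD1, stood at 17.8, 18.3 and 17.6 FPKM in KO and at 16.0, 19.0 and 18.8 FPKM in wildtype. The KO values lay between the wildtype values. The difference was 0.011 (SE 0.145, 95% interval -0.33 to 0.35, adjusted p = 0.990).

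Egln3 (chr12:54178981-54203860, minus strand) encodes PHD3, whose gene is itself induced by HIFs. It was measured at 8.13, 7.14 and 6.59 FPKM in KO replicates 1, 2 and 3 and at 6.15, 5.47 and 5.34 FPKM in wildtype replicates 1, 2 and 3. Each of the 3 KO libraries was above each wildtype library, with means of 7.50 ± 0.891 FPKM (SD, n = 2) in the KO samples and 5.66 ± 0.434 FPKM (SD, n = 3) in wildtype. The log2 difference was 0.43 (SE 0.172, 95% interval 0.03 to 0.84, unadjusted p = 0.0395), and it did not pass after adjustment (adjusted p = 0.332, and 0.189 with the 6 libraries as labelled). KO replicate 1 had the highest value, and without it the difference was 0.25, over 1.5 times smaller. Among the prolyl hydroxylases Egln3 was the least abundant per length, and its ratio to Egln1 was 0.618, 0.566 and 0.519 in KO against 0.487, 0.479 and 0.430 in wildtype. For Egln2 the ratio to Egln1 was 1.35, 1.45 and 1.39 in KO and 1.27, 1.67 and 1.51 in wildtype, with the groups overlapping.

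Vhl (chr6:113623959-113631633, plus strand), which encodes the part of the ubiquitin ligase that binds hydroxylated alpha subunits, was at 10.02, 11.2 and 9.40 FPKM in KO and at 9.88, 8.69 and 9.22 FPKM in wildtype. KO replicate 2 was the highest and the groups overlapped. The difference was 0.15 (SE 0.129, 95% interval -0.15 to 0.46, adjusted p = 0.698), and it was 0.092 without KO replicate 2.

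Hif1an (chr19:44562850-44576274, plus strand), the asparaginyl hydroxylase, was the steadiest of the 10 genes. Its level was 7.35, 7.74 and 7.94 FPKM in KO and 7.52, 7.92 and 7.51 FPKM in wildtype, with a highest over lowest library of 1.08. Of the 5711 genes with a mean between 5 and 25 FPKM, 0.840% had such a ratio under 1.1, and their median was 1.45. The group difference of Hif1an was 0.0065 (SE 0.122, 95% interval -0.28 to 0.29, adjusted p = 0.992).

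Cited2 (chr10:17723218-17725674, plus strand) encodes a protein that competes with HIF alpha subunits for CBP and p300, and the gene is itself a HIF target. It was the most abundant of the 10 genes, at 23.5, 24.9 and 22.6 FPKM in KO replicates 1, 2 and 3 and 18.7, 16.2 and 18.1 FPKM in wildtype replicates 1, 2 and 3. The KO libraries did not overlap with the wildtype libraries and lay above them. Mean levels were 23.6 ± 0.196 FPKM (SD, n = 2) in the KO samples and 17.7 ± 1.29 FPKM (SD, n = 3) in wildtype. The KO SD was taken between KO replicate 1 and the mean of replicates 2 and 3. Over the 3 KO libraries it was 1.16 FPKM. The log2 difference was 0.44 (SE 0.119, 95% interval 0.16 to 0.72, unadjusted p = 0.00745, adjusted p = 0.197). It was 0.42 with the 6 libraries as labelled (adjusted p = 0.0506) and 0.45 by DESeq2 (adjusted p = 0.0175), so the call depended on the tool. Over all alternatives it ranged from 0.39 to 0.49, with adjusted p from 0.0175 to 0.489. KO replicate 1, which lay with the wildtype libraries on the principal component, was with the other KO libraries for Cited2, and the difference was 0.49 from KO replicate 1 alone and 0.39 without it.

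Both of the genes whose groups did not overlap, 2 of 10 against 25% of all tested genes, act against HIFs, EGLN3 as a hydroxylase and CITED2 as a competitor for coactivators. So do the products of Egln1, Egln2, Vhl and Hif1an, whose groups overlapped, and the share of the set is not above that of all genes. Summed stress genes of dissection were 164, 93.8 and 92.0 FPKM in KO and 79.0, 94.2 and 97.7 FPKM in wildtype, overlapping between the groups. Of these 10 genes 7 were higher in KO, with a median log2 difference of 0.40 and 0 called. Fos (0.95) and Ier2 (0.60), both early response genes, had an unadjusted p under 0.05, 2 of the 10 against 13.7% of all tested genes. Fos was at 35.8, 16.6 and 14.7 FPKM in KO and 12.1, 11.9 and 17.0 FPKM in wildtype, so its groups overlapped. Its unadjusted p in edgeR with the 6 libraries as labelled was 0.0806. The groups did not overlap in 3 of the 10 stress genes, against 25% of all tested genes. In Ier2 and Junb the KO libraries were above the wildtype libraries, as in Cited2 and Egln3. In Hspa1a they were below. The part of the stress genes in the Cited2 and Egln3 levels was not tested.

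**Figure D2:**
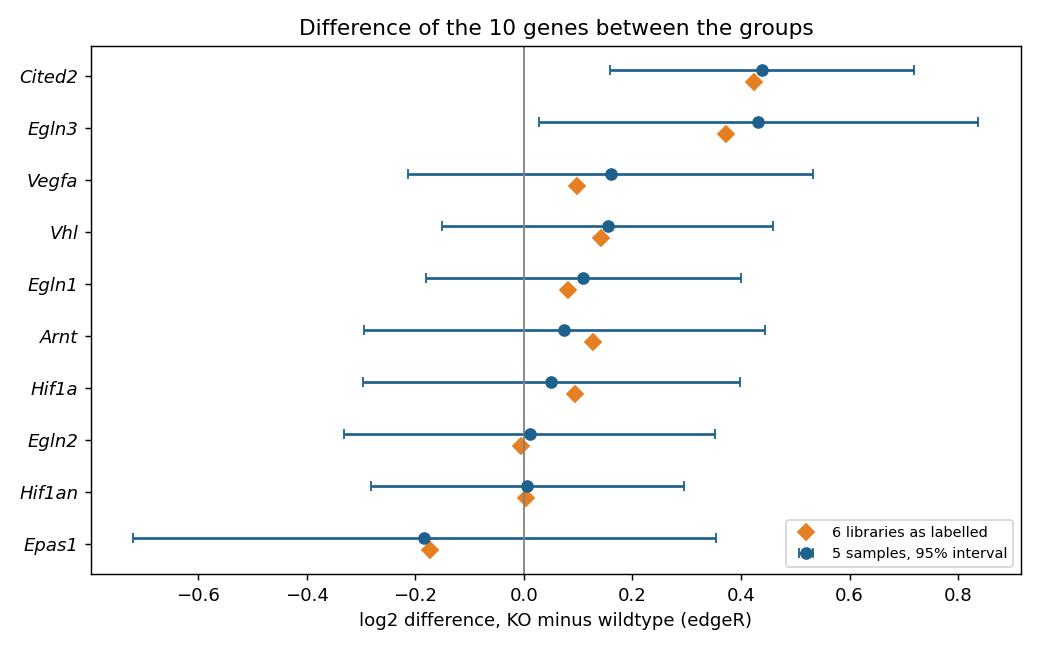
Log2 difference of each of the 10 genes, KO minus wildtype, from edgeR on the 5 merged samples (blue points with 95% intervals, unadjusted for multiple tests) and on the 6 libraries as labelled (orange diamonds). The intervals of Cited2 (0.16 to 0.72) and Egln3 (0.03 to 0.84) lie above 0 and the other 8 include 0.

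Promoter sequence was examined for these genes, since HIFs bind DNA at the core letters ACGTG or GCGTG. RefSeq windows (assembly GRCm38.p6, from 250 bases before to 50 bases after the start) were matched for 9 of the 10 genes, with 11 windows. ACGTG was searched on both strands and was found in 19.6% of 32851 windows of all genes, GCGTG in 32.4% and at least 1 of them in 43.8%. Among the 11 windows 8 held a match, which covered 7 of the 9 genes, and the windows of Vhl and Hif1an held none. The matches in Cited2 and Egln3 are shown because these genes separated the groups, and the ACGTG match of Egln1 is shown as the related hydroxylase whose groups overlapped. They are printed 5′ to 3′ on the strand of the gene with up to 30 bases on either side, from chr10:17723045-17723110 (plus strand), chr12:54204069-54204124 (minus strand) and chr8:124949288-124949352 (minus strand), and capitals mark the matched letters.
Cited2: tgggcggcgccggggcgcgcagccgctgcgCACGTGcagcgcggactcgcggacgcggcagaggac
Egln3: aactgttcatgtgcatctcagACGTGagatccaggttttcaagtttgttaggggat
Egln1: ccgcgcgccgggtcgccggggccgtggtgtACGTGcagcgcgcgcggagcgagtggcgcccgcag
The Cited2 match began 153 bases before the start and reads the same on both strands, so that it holds ACGTG once on each strand, overlapping. The Egln3 match began 229 bases and the Egln1 match 68 bases before the start, and the Egln1 window also held GCGTG, not shown, 126 bases before it. A match describes these letters only and is not a measured binding site.

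Vegfa (chr17:46016993-46032369, minus strand), which encodes the angiogenic growth factor VEGF-A and is a HIF target, was at 16.3, 13.5 and 13.8 FPKM in KO and at 15.2, 13.5 and 12.2 FPKM in wildtype. KO replicate 1 was the highest and the groups overlapped. Its difference was 0.16 (SE 0.158, 95% interval -0.21 to 0.53, adjusted p = 0.755), and it was -0.034 without KO replicate 1. In the window at the outer RefSeq start of Vegfa neither core was found. Sequence further than 250 bases before that start was not searched. A window at an inner start, which lies inside the gene, held both. Whether the inner window acts as a promoter was not tested.

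By mean over the 6 libraries, the order of levels per length was Cited2 (20.7 FPKM), Egln2 (17.9), Vegfa (14.1), Hif1a (14.0), Egln1 (12.5), Vhl (9.73), Hif1an (7.66), Egln3 (6.47), Arnt (6.27) and Epas1 (6.25). Neighbours in this order overlapped in their ranges over the libraries, except Egln1 against Vhl and Vhl against Hif1an. Cited2 and Egln2, which both act against the alpha subunits, were above Hif1a in 6 of 6 libraries. Within the set the ratio of the highest to the lowest library was 1.08 for Hif1an, 1.15 for Egln1, 1.19 for Egln2, 1.29 for Vhl, 1.33 for Hif1a, 1.34 for Vegfa and 1.43 for Arnt, all below the median of 1.45 for genes of like level. Egln3 (1.52), Cited2 (1.53) and Epas1 (1.81) were above it, the first pair with the groups apart and Epas1 through a single wildtype library.

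To place these profiles, the genes nearest to the alpha subunits and Vegfa were found by the distance of their centred log2 levels over the 6 libraries among 7613 genes. Ppp3r1 lay nearest to Hif1a, at a distance of 0.0362 against a median of 0.542, followed by Abhd17b (0.0881) and Hipk3 (0.0952). For Epas1 these were Tns3 (0.133), Trim21 (0.185) and Dag1 (0.189), with a median of 0.778, and each also had its highest value in wildtype replicate 1. For Vegfa they were Ddt (0.112), Tmed4 (0.152) and Marveld1 (0.152), with a median of 0.624. With 6 libraries sharing depth and cell make-up, these distances are descriptions.

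Other proteins that act on HIFs were taken as a list of 20 genes, of which 16 were tested, 8 higher and 8 lower in KO, with a median log2 difference of 0.0024 (-0.04 with 6 libraries) and 0 called in either fit. Those with the smallest unadjusted p were Cited4, a relative of Cited2, at -0.58 (SE 0.302, adjusted p = 0.476), the ubiquitin ligases Siah1a and Siah1b, which act on EGLN proteins, at -0.27 and -0.29, and the coactivator Ep300 at 0.27. Cited4 was at 5.31, 5.17 and 3.70 FPKM in KO and at 5.33, 7.12 and 9.65 FPKM in wildtype, so its groups barely missed each other, in the direction opposite to Cited2. Hif3a, the remaining alpha subunit, and Arnt2, the relative of Arnt, were too low for testing, with highest values of 0.289 and 0.536 FPKM.

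Genes known as HIF targets were then counted, since their transcripts respond to the same factors. Of 40 listed, 39 were tested, 23 higher and 16 lower in KO, and the median log2 difference was 0.11 on the merged samples but -0.08 with the 6 libraries as labelled. None was called on the merged samples, and 12 had an unadjusted p under 0.05 (10 higher and 2 lower), against 13.7% of all genes. Of the 10 higher, all but Ero1l were genes of glycolysis, its control or the transport of glucose and lactate. Targets of other roles went both ways, among them Ndufa4l2 (0.36), Ndrg1 (0.23), Kdm3a (-0.098) and Ddit4 (-0.35), each with an unadjusted p above 0.05. The list was chosen with earlier results of these data known, so its counts are descriptions. With the 6 libraries as labelled 8 of the 39 were called, 6 of them higher and 2 lower, against 3.71% of all genes, and DESeq2 called 10 against 5.72%. The higher ones were genes of glycolysis and its control, Pfkfb4 (log2 difference with 6 libraries 0.83), Hk2 (0.84), Eno1 (0.76) and Pfkfb3 (0.54), the lactate exporter Slc16a3 (0.79) and the oxidase of protein folding Ero1l (0.80). Eno1 has a near-identical copy with which reads may be shared. Pfkfb4, an enzyme that sets the level of a glycolysis activator, was at 20.9, 28.2 and 28.5 FPKM in KO and 12.9, 16.4 and 14.0 FPKM in wildtype. Hk2, the hexokinase of the first glycolytic step, was at 7.04, 11.4 and 11.9 FPKM in KO and 5.85, 5.07 and 5.86 FPKM in wildtype. In both genes KO replicate 1 lay between the other KO libraries and wildtype, which is a different order from Cited2 and Egln3, where it was not the lowest KO library.

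The targets called as lower with the 6 libraries as labelled were Angptl4, an inhibitor of lipoprotein lipase, and Hmox1, the haem oxygenase. Angptl4 was at 3.67, 2.27 and 2.23 FPKM in KO and 9.75, 6.39 and 7.29 FPKM in wildtype, a difference of -1.36 (SE 0.286, adjusted p = 0.166) on the merged samples and -1.50 (adjusted p = 0.0363) with 6 libraries. Hmox1 was at 44.1, 41.5 and 36.5 FPKM in KO and 60.1, 65.4 and 88.2 FPKM in wildtype, -0.75 (adjusted p = 0.190) and -0.80 (adjusted p = 0.0476). Neither gene's groups overlapped. The targets among the 10 genes, Vegfa, Egln3 and Cited2 had log2 differences of 0.16, 0.43 and 0.44 on the merged samples, and were not counted in the list.

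**Figure D3:**
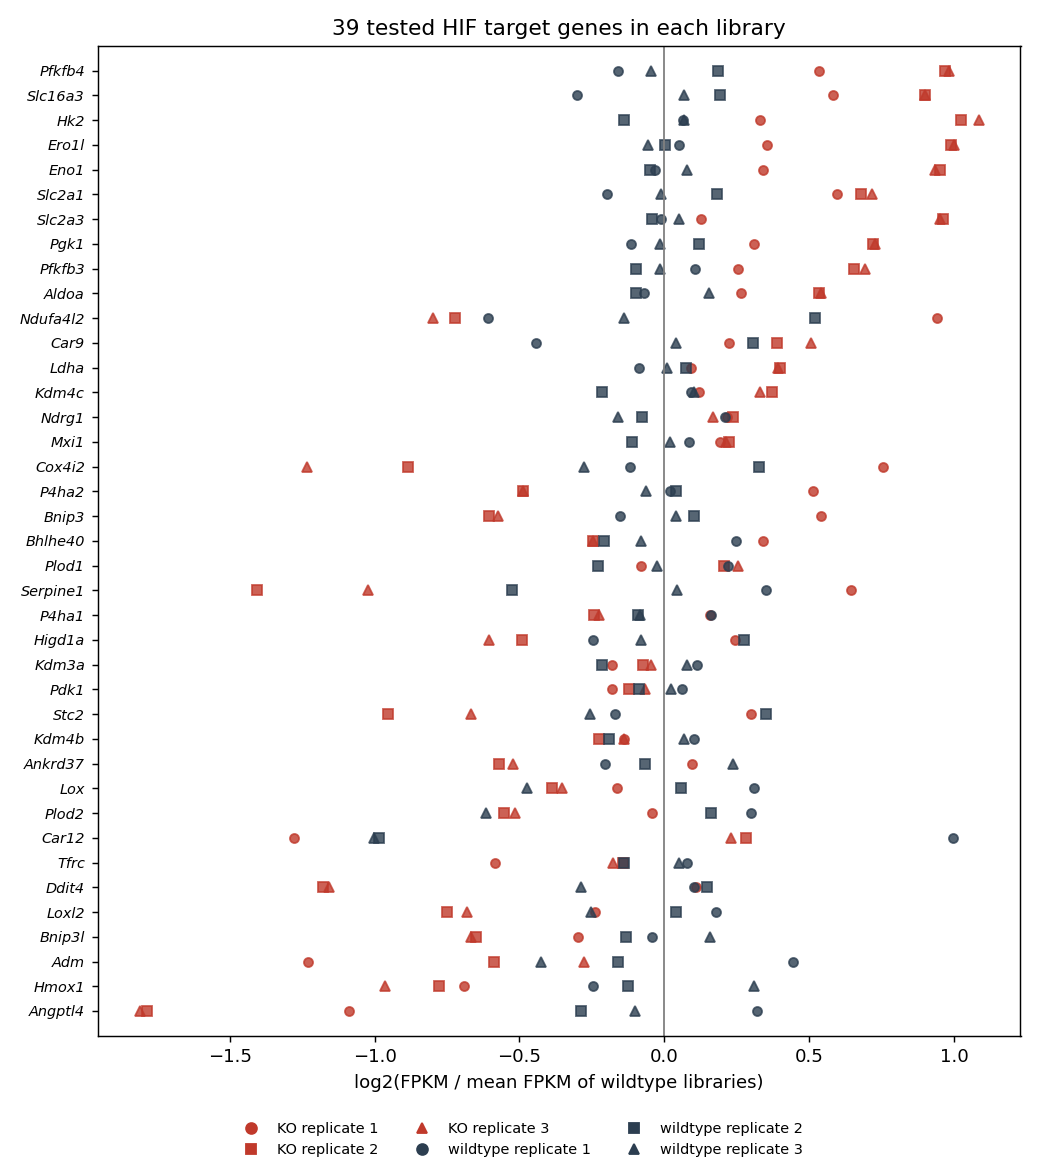
Level of the 39 tested HIF target genes in each library as log2 of FPKM over the wildtype mean, ordered by the fitted difference, with KO libraries in red and wildtype libraries in dark blue. At the top, Pfkfb4 and Slc16a3 have all 3 KO libraries above wildtype, and at the bottom Hmox1 and Angptl4 have all 3 below.

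Sums of several marker lists also differed between the groups. Neutrophils are rich in glycolytic transcripts, and 11 of 11 neutrophil markers were higher in KO (5 called with 6 libraries). Their sums were 62338, 50943 and 52146 FPKM in KO and 26991, 43712 and 30774 FPKM in wildtype. Among the KO libraries this sum was highest in replicate 1, where Pfkfb4 and Hk2 were lowest. S100a9 (27817 FPKM in KO replicate 1) and S100a8 (16321) dominated the sum. With Camp, Ngp and Retnlg they were highest of the KO libraries in replicate 1. By contrast, Elane, Mpo, Prtn3, Ltf, Mmp8 and Cxcr2 were lowest of the KO libraries there, as Pfkfb4 and Hk2 were. The sum therefore does not describe every neutrophil marker. Adipocytes express Angptl4, and summed adipocyte markers were 52.2, 20.3 and 20.0 FPKM in KO and 201, 73.5 and 133 FPKM in wildtype, with 4 of 4 tested lower. Erythroid markers, 8 of 8 lower, summed to 52308, 21255 and 21063 FPKM in KO and 60450, 71372 and 93796 FPKM in wildtype. B cell markers, 10 of 10 lower, summed to 140, 88.6 and 91.0 FPKM in KO and 316, 301 and 283 FPKM in wildtype. The part of these cells in the levels of the targets, of Cited2 or of Egln3 was not tested. Chondrocyte markers summed to 1500, 678 and 688 FPKM in KO and 670, 893 and 796 FPKM in wildtype, with KO replicate 1 above the rest. Most of this sum was Prg4, which alone reached 1034 FPKM in KO replicate 1. Of the other tested markers, Chad, Comp, Acan, Col9a2, Col9a3, Hapln1, Sox9 and Snorc also peaked in that library. The rest, Col2a1, Col11a1, Col11a2 and Cnmd, peaked in wildtype replicate 1. The sum therefore does not describe every chondrocyte marker.

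Finally, Vegfa was set beside its family and receptors. Of 9 listed genes 8 were tested, 1 higher and 7 lower in KO, with a median log2 difference of -0.54 and 0 called in either fit, whereas Vegfa itself was at 0.16. Vegfc, the lymphatic growth factor, had the smallest unadjusted p (0.0346), at 2.21, 2.04 and 1.71 FPKM in KO and 3.32, 2.65 and 3.87 FPKM in wildtype, with the groups apart and a difference of -0.65 (SE 0.249, adjusted p = 0.315). Kdr, the main VEGF-A receptor, was at -0.58 (adjusted p = 0.474), Pgf at -0.86 (0.479) and Flt4 at -0.51 (0.483). The groups overlapped for both Kdr and Flt4. Kdr and Flt4 are endothelial receptors, and the endothelial marker sums given with Epas1 were lower in KO than in each wildtype library. The part of endothelial cells in the receptor levels was not tested.

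**Figure D4:**
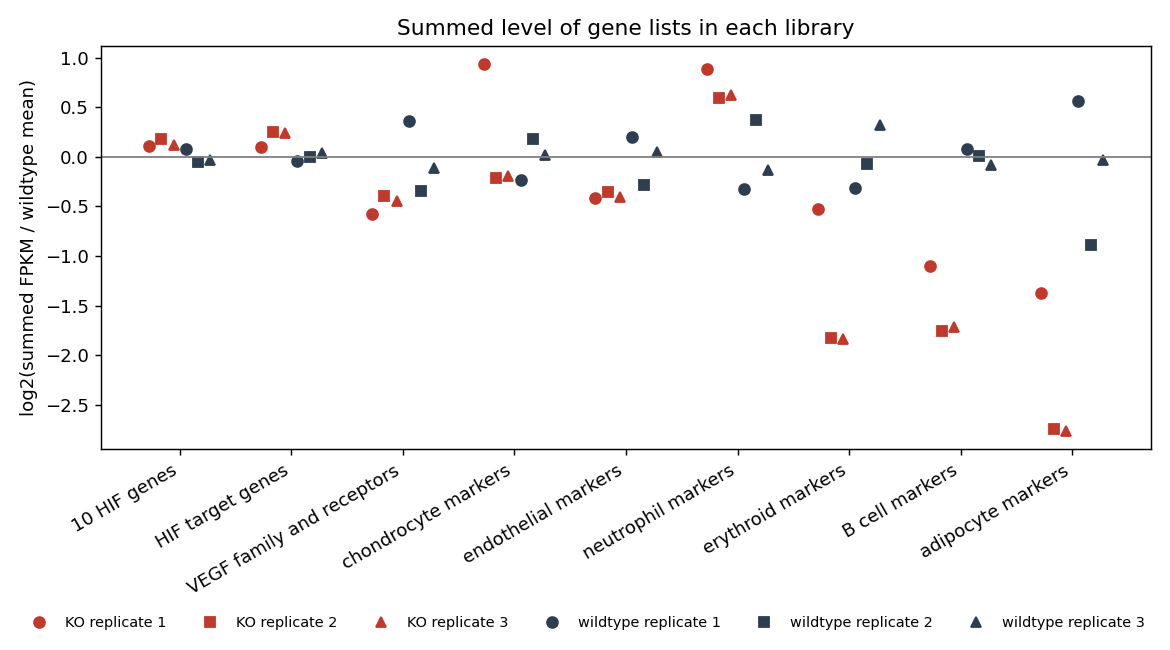
Summed FPKM of gene lists in each library, as log2 of the sum over the mean of the 3 wildtype libraries, with KO in red and wildtype in dark blue. The sum of the 10 HIF genes is 119, 125 and 119 FPKM in KO and 116, 106 and 108 FPKM in wildtype. The KO sums are above wildtype by a small margin, although only Cited2 and Egln3 have groups apart by themselves. Neutrophil markers are above 0 and erythroid, B cell and adipocyte markers are below 0 in all 3 KO libraries.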

How the data were processed

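Bulk mRNA libraries with molecular identifiers were sequenced from mouse cartilage. The submitters' processing notes name cutadapt 1.9, HISAT2 2.0.4, UMI-tools and StringTie 1.3.4d. The authors deposited 1 table with FPKM values, scaled within each library, and estimated counts, which were used as given. Low values piled up at 4 (6596 values) against 3 (4170) and 5 (2332), so the unit of a count is unclear and may not be a single fragment. Whether strand was used in counting is not given in the sources used here. Positions follow GRCm38. Genes overlapping Hif1a, Epas1, Arnt and Egln2 in the table did not exceed 0.383 FPKM. Levels of the targeted gene are not reported here.

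Groups and replicate numbers came from the sample titles. KO replicates 2 and 3 were merged by their mean. Genes whose mean reached 0.5 FPKM were tested with edgeR 4.0.16 (TMM, quasi-likelihood, two-sided, R 4.3.3) with Benjamini-Hochberg adjustment, checked on simulated counts. DESeq2 1.42.0, limma 3.58.1 on log2(FPKM + 1) or log2(FPKM + 0.1), no filter, a filter at 5 FPKM, the 6 libraries as labelled, scaling by median of ratios, division of counts by 4, a replicate block and each library left out were the alternatives. The 10 genes and all lists were chosen with earlier results of these data known, so their counts are descriptions. Named beside the 10 genes were the 4 genes of each list with the smallest unadjusted p, any list gene called with 6 libraries, and the 3 nearest genes (mean of at least 5 FPKM) of Hif1a, Epas1 and Vegfa. Hif3a, Arnt2, the named stress and cell marker genes, and Ndufa4l2, Ndrg1, Kdm3a and Ddit4 were named after their values were seen. The study states in general that its samples were independent, but the labels do not tie libraries to mice, so p-values may measure a spread that is partly technical. No limit is given for a count of 0, since the unit of the counts is unclear and none of the 10 genes was at 0.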

Additional observations from a re-analysis of the deposited data

How the results depend on the processing

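None of the 10 genes crossed the threshold except Cited2 under DESeq2. Of 160 values of the 10 genes under alternatives, 140 kept their direction and side of the threshold, and 19 turned in sign, in Hif1a, Epas1, Arnt, Egln2, Hif1an and Vegfa. Egln2 turned to -0.033 with a minimum of 5 FPKM, -0.0016 and -0.0015 with limma at pseudocounts of 1 and 0.1, and -0.0053 with the 6 libraries as labelled. Hif1an turned to -0.039 with a minimum of 5 FPKM and to -0.0094 and -0.010 with limma. With single libraries left out, ranges were -0.020 to 0.18 for Hif1a, -0.33 to 0.066 for Epas1, -0.0081 to 0.23 for Arnt, -0.034 to 0.22 for Vegfa, 0.024 to 0.13 for Egln1, 0.092 to 0.21 for Vhl, -0.085 to 0.083 for Egln2 and -0.028 to 0.061 for Hif1an. Without KO replicates 2 and 3, Hif1a was at -0.087 and Arnt at -0.090. The cause was not tested.

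Over all genes the 0 calls (2106 at an unadjusted p under 0.05) became 21 without the filter, 880 with DESeq2, 570 with the 6 libraries as labelled and 9 without KO replicates 2 and 3, and ranged from 0 to 352 with single libraries left out, the highest without KO replicate 1. Members called became 1 with DESeq2. HIF targets called became 10 with DESeq2, 8 with the 6 libraries as labelled and 0 to 5 with single libraries left out, the 5 without KO replicate 1. Where a group was left with 1 sample, it was assumed to vary like the other. The replicate block on the 6 libraries gave 0 calls (2809 at an unadjusted p under 0.05), against 570 without it. Replicate numbers did not pair the samples, since same-numbered deviations correlated at -0.145, -0.108 and -0.0581 and 0 of 6 libraries correlated best with its own number. Differences smaller than the 95% intervals given with each of the 10 genes could not be seen with 5 samples.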
